A study of Mus musculus with 12 samples.

Results

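Promoter flank peaks are H2A.Z peaks whose middle lies between 1 and 3 kb from the transcription start of the gene to which the authors' annotation assigns them. They were taken as the rows with the authors' 3 kb promoter label on chromosomes 1 to 19, and there were 2406 of them among 57682 autosomal peaks in 4 lists. The lists came from nucleus accumbens of mouse brain, profiled by chromatin immunoprecipitation and sequencing of the histone variant H2A.Z. The 4 conditions were saline then cocaine (SC, labelled acute), cocaine then saline (CS, labelled withdrawal), cocaine then cocaine (CC, labelled challenge) and saline then saline (SS), with 3 samples and 1 deposited peak list each. The labels state neither dose nor interval, and they give no sex, strain, age or batch. Histone H3 libraries, which the design text mentions, were not analysed here, and neither was sequencing depth. No list is split by sample, so replicate error is unknown throughout and no difference between conditions was tested. The 95% intervals are exact binomial (Clopper-Pearson) intervals, or order-statistic intervals for medians, and they cover counting error only. A fold enrichment is the authors' ratio of a peak over its background and was compared only within a list.

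H2A.Z replaces H2A in a small share of nucleosomes and is best known from the nucleosomes that border the nucleosome-poor region at a transcription start. It is deposited by the SRCAP and p400 remodelling complexes, and it also marks enhancers and the CpG-rich promoters of developmental genes. A peak in the flank of a promoter can therefore sit over an upstream regulatory element, over the beginning of the gene body or over another start that the annotation used here does not assign to it.

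The SC list held 488 flank peaks upstream and 513 downstream of a start, in all 4.43% (4.17 to 4.71) of its 22584 autosomal peaks. There were 191 in CS, 3.06% (2.65 to 3.52) of 6238, and 156 in CC, 3.34% (2.84 to 3.90) of 4670. The SS list held 1058, 4.37% (4.12 to 4.64) of 24190. Start-site peaks, those with their middle within 1000 bp of a start, made up 63.2%, 81.6%, 83.0% and 62.2% of the SC, CS, CC and SS lists. The flank peaks carried 972 gene names in SC, 148 in CS, 118 in CC and 1018 in SS, and 1428 in at least 1 list.

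Flank peaks at Tmem88b, Il31ra and Gp5 were found in all 4 lists beside annotated starts that had no peak in any of them. The promoter windows of these genes are shown because they are the sequence at the bare start. Each window runs from 250 bases before to 50 bases after the RefSeq start on GRCm38.p6, is written 5′ to 3′ along the gene, and has every CG dinucleotide in capitals. Tmem88b, a transmembrane protein gene, has its window at chr4:155785825-155786124 on the minus strand with 4 CG dinucleotides. Il31ra, a receptor subunit for the cytokine interleukin 31, has its window at chr13:112580613-112580912 on the minus strand with 6. Gp5, a platelet glycoprotein, has its window at chr16:30310732-30311031 on the minus strand with 0.
Tmem88b: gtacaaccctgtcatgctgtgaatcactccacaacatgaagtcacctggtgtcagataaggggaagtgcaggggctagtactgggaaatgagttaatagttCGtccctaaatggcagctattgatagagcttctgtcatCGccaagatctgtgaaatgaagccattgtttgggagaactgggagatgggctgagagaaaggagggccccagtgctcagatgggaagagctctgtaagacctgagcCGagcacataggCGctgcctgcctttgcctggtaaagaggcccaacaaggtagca
Il31ra: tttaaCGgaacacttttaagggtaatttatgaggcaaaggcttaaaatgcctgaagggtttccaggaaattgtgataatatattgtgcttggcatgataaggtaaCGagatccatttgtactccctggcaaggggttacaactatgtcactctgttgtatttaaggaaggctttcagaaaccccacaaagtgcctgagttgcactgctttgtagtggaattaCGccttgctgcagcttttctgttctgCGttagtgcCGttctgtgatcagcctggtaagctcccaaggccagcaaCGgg
Gp5: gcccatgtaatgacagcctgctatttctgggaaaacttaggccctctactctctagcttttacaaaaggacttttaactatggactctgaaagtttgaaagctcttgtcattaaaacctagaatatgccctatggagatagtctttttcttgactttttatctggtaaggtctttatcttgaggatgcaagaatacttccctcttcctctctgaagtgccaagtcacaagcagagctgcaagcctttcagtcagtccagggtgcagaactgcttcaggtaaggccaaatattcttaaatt

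Other flank peaks lay over a RefSeq start other than the one that the authors' rows measured from. The windows of 3 such starts, picked after their values were seen, are shown because they are CpG-rich. Hlcs, which encodes the enzyme that attaches biotin to carboxylases, has a RefSeq window at chr16:94290242-94290541 on the minus strand with 22 CG dinucleotides, under an upstream flank peak of Hlcs itself. Sall1, a zinc finger transcription factor, has a window at chr8:89042813-89043112 on the minus strand with 39, under a Sall1 flank peak. Chrm4, the muscarinic M4 receptor found on D1 medium spiny neurons, has a window at chr2:91921939-91922238 on the plus strand with 30, under an SS flank peak (fold enrichment 5.20) assigned to the pseudogene Gm10805.
Hlcs: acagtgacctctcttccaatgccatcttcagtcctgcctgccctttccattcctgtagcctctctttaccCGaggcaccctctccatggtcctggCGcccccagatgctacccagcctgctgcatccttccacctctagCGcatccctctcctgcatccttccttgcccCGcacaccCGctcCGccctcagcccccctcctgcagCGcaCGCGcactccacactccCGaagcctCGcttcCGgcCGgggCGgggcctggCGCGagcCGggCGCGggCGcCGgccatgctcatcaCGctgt
Sall1: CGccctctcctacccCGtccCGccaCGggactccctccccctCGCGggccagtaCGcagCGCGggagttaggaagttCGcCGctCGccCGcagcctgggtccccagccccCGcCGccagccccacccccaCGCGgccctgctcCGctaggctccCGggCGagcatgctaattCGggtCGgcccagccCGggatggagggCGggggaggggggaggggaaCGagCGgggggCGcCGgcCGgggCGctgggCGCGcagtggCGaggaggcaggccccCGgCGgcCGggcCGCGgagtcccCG
Chrm4: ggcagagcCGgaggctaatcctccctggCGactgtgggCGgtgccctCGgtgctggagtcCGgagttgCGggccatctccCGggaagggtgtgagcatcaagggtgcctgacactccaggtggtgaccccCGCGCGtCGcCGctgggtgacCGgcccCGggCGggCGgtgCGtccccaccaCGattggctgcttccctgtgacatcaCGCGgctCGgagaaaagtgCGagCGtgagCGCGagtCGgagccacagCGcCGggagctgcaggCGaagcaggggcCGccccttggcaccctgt

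Across all 31396 autosomal windows of the RefSeq table the median was 7 CG dinucleotides, with quartiles of 3 and 21. CG was counted on 1 strand, since it reads the same on both. None of the 6 windows shown held the letters TATAAA on either strand, which 13.6% of all windows did. A comparison of CG content over the flank peaks as a set was void, because a window of the same symbol was found for 76.0% of protein-coding SC and 75.8% of protein-coding SS flank peaks, and for fewer in CS and CC. The table had no windows for chromosome 18, so flank peaks there were left out of these counts. Over a RefSeq window lay 37 of 981 flank peaks in SC (3.77%, 2.67 to 5.16), 7 of 185 in CS, 1 of 151 in CC and 42 of 1034 in SS (4.06%, 2.94 to 5.45). Start-site peaks did so for 67.4% in SC, 27.7% in CS, 25.2% in CC and 67.8% in SS. The definition of the classes partly fixes this contrast, since a flank peak has its middle at least 1 kb from its annotated start. Few flank peaks lay over a RefSeq start. Among those of SS, the Fgf12 peak had a fold enrichment of 10.5, and Fgf12 encodes an intracellular fibroblast growth factor homologue. Picked after their values were seen, a peak assigned to Smim4 lay over the start of Nt5dc2 (8.58), and a peak of the antisense transcript Foxl2os lay over that of Foxl2 (8.27).

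Flank peaks were split about evenly between the sides of the start. Upstream of the start lay 488 in SC (48.8%, 45.6 to 51.9), 107 of 191 in CS (56.0%, 48.7 to 63.2), 77 of 156 in CC (49.4%, 41.3 to 57.5) and 529 of 1058 in SS (50.0%, 46.9 to 53.1). The intervals of all 4 lists include an even split. In SC and SS the downstream counts fell off with distance more steeply than the upstream ones. In SC the 4 successive windows of 500 bp held 147, 119, 120 and 102 peaks upstream and 219, 124, 91 and 79 downstream. In SS they held 172, 135, 116 and 106 upstream and 232, 125, 95 and 77 downstream. In CS the windows held 41, 26, 18 and 22 peaks upstream and 28, 21, 17 and 18 downstream, and in CC 32, 21, 11 and 13 upstream and 33, 18, 13 and 15 downstream. The window nearest the start was the fullest on each side in all 4 lists.

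**Figure D1:**
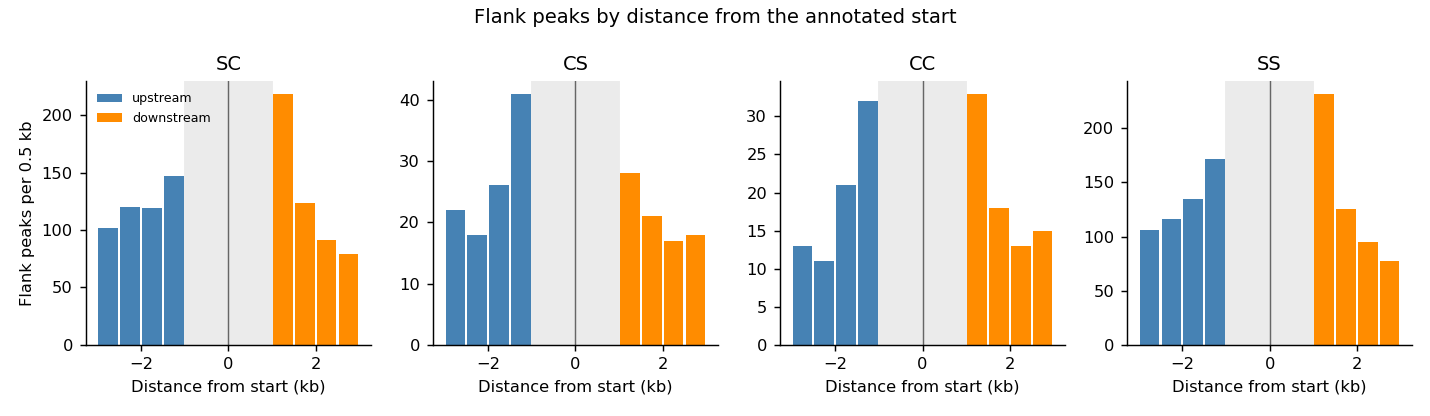
Number of flank peaks per 0.5 kb (vertical axis, own scale per panel) against signed distance of the peak middle from the annotated start in kb (horizontal axis), upstream in blue and downstream in orange, for the SC, CS, CC and SS lists; the grey band is the excluded 1 kb around the start. In SC and SS the downstream window nearest the start is the tallest, with 219 and 232 peaks.

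Peaks lay close to the 1000 bp limit on both of its sides. In the 100 bp beyond it there were 92, 13, 16 and 106 peaks in SC, CS, CC and SS, with median fold enrichments of 4.26, 4.87, 5.15 and 3.51. In the 100 bp within it there were 105, 28, 17 and 128, with medians of 3.67, 4.69, 4.35 and 3.38. An edge of the peak reached to within 1000 bp of the start for 24.5% of flank peaks in SC, 6.28% in CS, 7.69% in CC and 26.0% in SS. The median width of flank peaks was 548 bp in SC, 111 bp in CS, 101.5 bp in CC and 531 bp in SS, and that of start-site peaks was 902, 111, 108 and 967 bp.

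In SC and SS the side differed with the kind and the length of the gene. For protein-coding genes 57.4% (53.6 to 61.2) of SC flank peaks lay downstream, against 39.0% (33.7 to 44.4) for other gene types. In SS these shares were 56.4% (52.5 to 60.2) and 39.1% (34.2 to 44.1). In CS they were 48.4% (39.4 to 57.5) and 35.4% (23.9 to 48.2), and in CC 52.7% (43.0 to 62.3) and 45.7% (30.9 to 61.0), with intervals that overlap in both lists. Most downstream flank peaks had their middle inside the annotated gene, 86.5% in SC, 85.7% in CS, 91.1% in CC and 85.1% in SS. Where the annotated gene was shorter than 1000 bp, 76.6% of flank peaks in SC and 79.0% in SS were upstream. Where it spanned at least 3000 bp, 45.5% (41.2 to 50.0) of protein-coding and 48.7% (40.6 to 56.9) of other SC flank peaks were upstream, and 47.7% (43.3 to 52.1) and 46.0% (38.2 to 54.0) in SS. The difference in side between gene types in SC and SS was thus not seen among the longer genes.

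MicroRNA genes, whose hairpins are far shorter than 1000 bp, had flank peaks upstream only, with 15 peaks in SC, 6 in CS, 1 in CC and 22 in SS. These peaks lay beside 24 miRNA genes, of which 11 had mature sequences in the RefSeq table. The following 3 are shown because their genes had the strongest such peaks of SS among those with a sequence, with the seed, bases 2 to 8, in capitals. They share no seed.
mmu-miR-148a-3p: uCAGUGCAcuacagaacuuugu
mmu-miR-193b-3p: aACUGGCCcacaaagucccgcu
mmu-miR-339-5p: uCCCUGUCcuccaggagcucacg
Mir148a, at chr6:51269829-51269850 on the minus strand for the 3p arm, had a flank peak of fold enrichment 14.8 in SC, 1053 bp upstream, and of 8.33 in SS, 1008 bp upstream. A CS peak of 5.22 within the same region was 926 bp from the start and so counted as a start-site peak. Mir193b, with its 3p arm at chr16:13449570-13449591 on the plus strand, had peaks of 11.2 in SC and 7.13 in SS, and these lay over the shared RefSeq start of the transcripts Gm32817 and Gm53058. Mir339, with its 5p arm at chr5:139369708-139369730 on the minus strand, had peaks of 4.82 in SC, 5.35 in CS and 5.42 in SS. No miRNA gene with a flank peak had a start-site peak in the same list.

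Over all gene types, most flank peaks belonged to genes without a start-site peak in the same list. For protein-coding genes alone this did not hold in SC and SS. There 356 flank peaks in SC and 352 in SS had such a peak, and 309 and 317 had none. In CS 52 protein-coding flank peaks had one and 74 had none, and in CC 48 and 62. A start-site peak under the same gene name accompanied 388 flank peaks in SC (38.8%, 35.7 to 41.9), 56 of 191 in CS (29.3%, 23.0 to 36.3), 55 of 156 in CC (35.3%, 27.8 to 43.3) and 389 of 1058 in SS (36.8%, 33.9 to 39.8). Over flank and gene body peaks together this share was 59.7 percent in SC, 21.2 percent in CS, 24.5 percent in CC and 53.8 percent in SS. Gene body peaks, which lie further into the gene, had a start-site companion more often in SC (66.1%, 64.5 to 67.8) and SS (60.1%, 58.3 to 61.9), and less often in CS (16.4%, 12.5 to 20.9) and CC (16.6%, 11.8 to 22.3). The intervals of flank and gene body peaks do not overlap in any list, but gene type was not matched between these classes. In CS and CC the surplus of flank peaks rested on the Sfi1 locus described below. Without it the flank share was 18.8% (13.0 to 25.7) in CS and 21.8% (14.9 to 30.1) in CC, and both intervals overlap those of the gene body peaks.

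**Figure D2:**
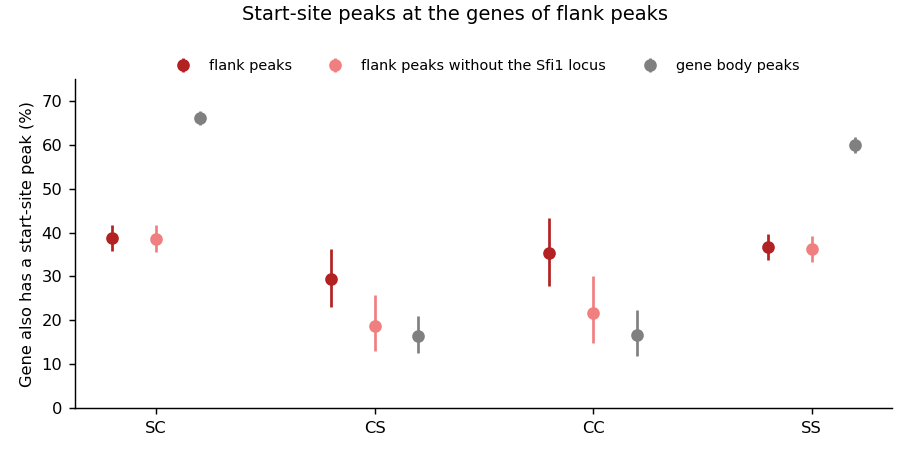
Share of peaks (%) whose gene also has a start-site peak in the same list, for flank peaks, flank peaks without the Sfi1 locus and gene body peaks in the SC, CS, CC and SS lists; bars are 95% exact binomial intervals. Flank peaks sit below gene body peaks in SC (38.8% against 66.1%) and SS (36.8% against 60.1%), and in CS and CC their share drops once the Sfi1 locus is left out.

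The companion was often not at the start that the flank peak was measured from. The nearest companion was annotated to a start within 100 bp of the flank peak's own for 43.3% (38.3 to 48.4) of accompanied flank peaks in SC, 60.7% (46.8 to 73.5) in CS, 72.7% (59.0 to 83.9) in CC and 48.6% (43.5 to 53.7) in SS. The median gap between the facing edges of the 2 peaks was 2592.5 bp in SC, 2271.5 bp in CS, 1444 bp in CC and 1708 bp in SS. Companions were the stronger peak in 75.0% (70.4 to 79.2) of SC and 67.1% (62.2 to 71.7) of SS cases, and in 42.9% (29.7 to 56.8) of CS and 49.1% (35.4 to 62.9) of CC cases. Any start-site peak within 3000 bp, whatever its gene, was found for 21.2% of flank peaks in SC, 18.8% in CS, 26.3% in CC and 23.1% in SS. Among flank peaks with no companion by name, such a neighbour was rare, 19 of 613 in SC and 22 of 669 in SS.

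Gene type differed between accompanied flank peaks and solitary ones, those without a start-site peak of the same gene. Protein-coding genes made up 91.8% (88.6 to 94.3) of accompanied flank peaks in SC and 90.5% (87.1 to 93.2) in SS, close to the 89.5% and 89.6% among start-site peaks. Of solitary flank peaks they made up 50.4% (46.4 to 54.4) in SC, 54.8% (46.0 to 63.4) in CS, 61.4% (51.2 to 70.9) in CC and 47.4% (43.5 to 51.2) in SS. Long intergenic RNAs were 16.8% of solitary flank peaks in SC and 18.8% in SS, and transcripts of the miscellaneous class were 30.3% and 30.2%.

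Flank peaks were weak within the SC and SS lists. Their median fold enrichment was 3.66 (3.55 to 3.74) in SC against 6.09 (6.0 to 6.17) for start-site peaks, and 3.54 (3.48 to 3.61) in SS against 5.32 (5.28 to 5.38). Gene body peaks, at 3.41 in SC and 3.53 in SS, were much like them. In CS the flank median was 4.76 (4.68 to 5.02) and the start-site median 4.68. In CC these were 5.07 (4.79 to 5.33) and 4.78 (4.74 to 4.81). The gene body medians, 4.72 (4.68 to 4.92) in CS and 5.08 (4.91 to 5.43) in CC, were again much like the flank medians. Each list was divided into 5 equal groups by fold enrichment, and the strongest group held 8.09% of flank peaks in SC, 35.1% in CS, 39.1% in CC and 6.62% in SS. Without the Sfi1 locus these shares were 8.16%, 26.9% (20.2 to 34.4), 29.0% (21.2 to 37.9) and 6.69%. An even spread over the 5 groups lies below the CS and CC shares, with and without that locus, and above the SC and SS shares. The upper quartile of gene body peaks, 5.69 in CS and 6.89 in CC, also lay above the lower limit of the strongest group, 5.34 and 5.44. The excess of strong peaks in CS and CC was thus not particular to flank peaks. A q-value of 1e-05 or less was reached by 96.9% of flank peaks in SC, 39.8% in CS, 41.0% in CC and 96.7% in SS, against 99.4%, 13.6%, 14.7% and 99.3% of start-site peaks. Without the Sfi1 locus the flank shares were 31.25% in CS and 32.3% in CC. Gene body peaks reached that q-value for 31.1% in CS and 38.9% in CC, so the contrast with start-site peaks was not particular to flank peaks. Downstream flank peaks had higher medians than upstream ones in SC (3.78 against 3.48), CS (5.00 against 4.68) and SS (3.72 against 3.42), and a lower median in CC (4.77 against 5.34). In CS and CC the intervals of the sides overlap. Solitary flank peaks were stronger than accompanied ones in SC (3.79, 3.70 to 3.90, against 3.37, 3.30 to 3.49) and in SS (3.64, 3.53 to 3.76, against 3.39, 3.29 to 3.52). In CS the solitary median was 4.68 and the accompanied one 5.44, and in CC 4.84 and 5.80. Without the Sfi1 locus the accompanied medians were 4.73 in CS and 5.05 in CC.

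**Figure D3:**
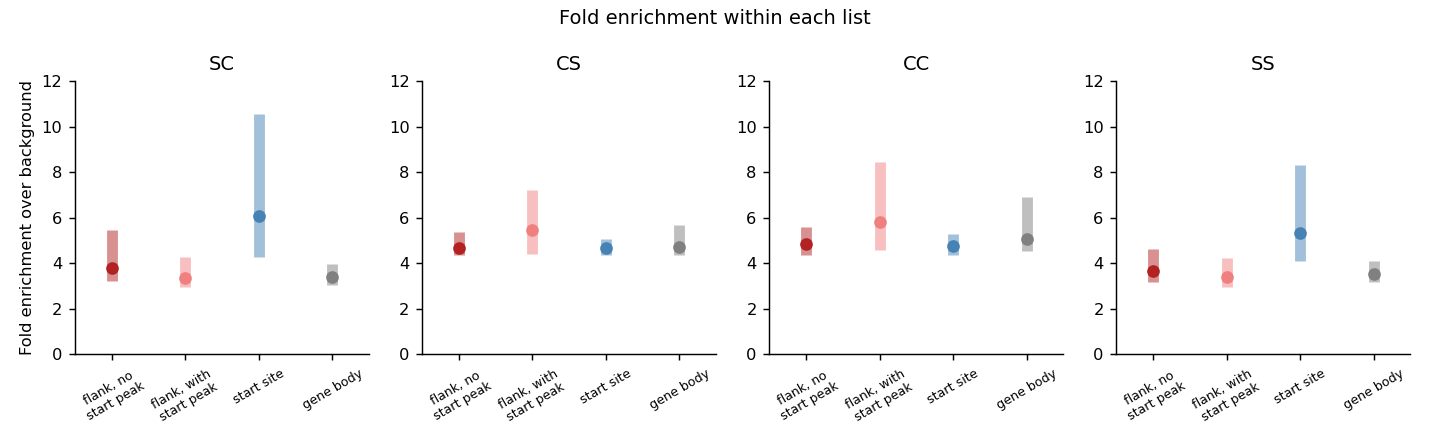
Fold enrichment over background (vertical axis, the authors' ratio, to be read within a panel only) in the SC, CS, CC and SS lists for flank peaks without and with a start-site peak at the same gene, start-site peaks and gene body peaks; points are medians and bars run from the lower to the upper quartile. Start-site peaks stand above both kinds of flank peak in SC and SS, with medians of 6.09 and 5.32, and not in CS and CC.

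Among the strongest flank peaks of SC, pseudogenes and clone names left out, were those at Evx1os, Fev, Plin1, Sost and Dmrt2. In SC none of these genes had a start-site peak, and the peaks of all but Evx1os were downstream. Fev, a factor of serotonin neurons, had a peak of fold enrichment 16.3 in SC at chr1:74882021-74882633 and of 11.8 in SS. The Fev peak was 2281 bp downstream of the start in SC. Dmrt2, a DM-domain transcription factor, had 15.5 in SC and 8.35 in SS, 1346 bp downstream in SC. Sost, the secreted Wnt inhibitor sclerostin of bone cells, had 15.6 in SC at chr11:101963735-101964421 and 12.2 in SS. The same Sost region carried a CC peak of 5.08, whose middle was 3155 bp from the start, so the authors' label there was gene body and not flank. Plin1, perilipin of fat cell lipid droplets, had flank peaks in all 4 lists, of 15.7 in SC, 4.84 in CS, 4.87 in CC and 12.1 in SS. Only the SS list added a start-site peak for Plin1, of 2.85. Upstream, the antisense transcript Evx1os had 16.4 in SC and 10.9 in SS, and Prdm13, a zinc finger factor of spinal cord neurons, had 14.5 in SC, 4.68 in CS and 10.5 in SS.

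Sost and Plin1 were also among the 6 strongest of SS, and the other 4 were Sft2d3, Hlcs, Nrbp2 and Srrm3. Hlcs, whose window under the peak is printed above, had a flank peak of 13.0 at chr16:94289638-94290594 in SS, 14.3 in SC and 5.02 in CS. A start-site peak of Hlcs at another annotated start had 9.04 in SC and 8.01 in SS. Nrbp2, a pseudokinase, had a solitary upstream peak of 14.3 in SC and 12.7 in SS, and neither CS nor CC had a peak there. Srrm3, a factor for the splicing of neuronal microexons, had 14.4 in SC and 12.3 in SS, with a weaker start-site peak at another start of the gene in both. The strongest SS flank peak of a named gene was that of Sft2d3, a vesicle transport gene, with 14.1. Its middle lay 1037 bp downstream, close to the 1000 bp limit. The SC peak over it, of 12.8, had its middle 960 bp from the start and so counted as a start-site peak.

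Of the 1428 genes with a flank peak in at least 1 list, 35 had one in all 4 lists, 497 in SC and SS only, and 12 in CS and CC only. CS and CC held far fewer such genes, 148 and 118, than SC and SS, 972 and 1018. How far that sets these counts was not tested, and start-site genes were not split in this way. Of the strongest SS flank peaks that a flank peak overlapped in all other lists, Aida, an axin-interacting protein, stood at 9.84 in SC, 18.6 in CS, 18.9 in CC and 11.6 in SS. It was second among flank peaks of protein-coding genes in CS and CC. The first was Il31ra, with 8.24 in SC, 20.5 in CS, 22.8 in CC and 7.24 in SS, 2430, 2419, 2420 and 2428 bp downstream of the start. Both thus ranked high in CS and CC. Tmem88b had 11.5 in SC, 6.68 in CS, 4.31 in CC and 11.2 in SS. Gp5 had 13.8 in SC, 4.36 in CS, 4.25 in CC and 10.4 in SS. At Tmem88b and Gp5 the CC peaks, with q-values of 0.00776 and 0.00822, did not overlap the CS peaks. Both lay under the wider SS peak at different spots. The starts of Aida, Il31ra, Tmem88b and Gp5 carried no start-site peak in any list. Adcy6, an adenylyl cyclase that makes cAMP, had an upstream peak of 11.1 in SC at chr15:98608968-98610111 and of 9.36 in SS at chr15:98608954-98610187. In its place CS had narrow peaks of 4.68 and 4.31 and CC of 4.89 and 5.54, and no list had a start-site peak of Adcy6. Ppp1r13l, which encodes an inhibitor of p53, had 7.54 in SC, 5.69 in CS, 5.44 in CC and 7.74 in SS. Rasa4, a Ras GTPase-activating protein, had 6.98, 5.02, 5.80 and 7.58 in SC, CS, CC and SS.

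Flank peaks recurred between lists less often than peaks in general, except between CS and CC. An SS peak overlapped 685 SC flank peaks by at least 1 bp (68.4%, 65.5 to 71.3), where the figure for all SC peaks was 81.3 percent. For CS it overlapped 139 of 191 (72.8%, 65.9 to 79.0), against 93.5 percent of all CS peaks, and for CC 122 of 156 (78.2%, 70.9 to 84.4), against 94.4 percent of all CC peaks. In the other direction an SC peak overlapped 674 of 1058 SS flank peaks (63.7%, 60.7 to 66.6), with 75.6 percent of all SS peaks overlapped. A CS peak overlapped 121 of them (11.4%, 9.58 to 13.5; all SS peaks 20.4 percent), and a CC peak 100 (9.45%, 7.76 to 11.4; all SS peaks 15.8 percent). A CS peak overlapped 9.89% of SC flank peaks (all SC peaks 20.6 percent), and a CC peak 8.59% (16.1 percent). An SC peak overlapped 63.4% of CS flank peaks (all CS peaks 87.9 percent) and 70.5% of CC flank peaks (all CC peaks 89.5 percent). At 1 bp the flank share was below the share of all peaks in each of these comparisons. The lists differ in size and in peak width, and how far that sets these shares was not tested. When each list was reduced to its 4670 strongest peaks, the SS flank peaks overlapped by SC numbered 60 of 67 (89.6%, 79.7 to 95.7), and the share of all such SS peaks was 88.4%.

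Against the other classes, flank peaks stood below start-site peaks and above gene body peaks in SC and SS. An SS peak overlapped 94.3% of SC start-site peaks and 50.0% (48.2 to 51.7) of SC gene body peaks. An SC peak overlapped 89.2% of SS start-site peaks and 56.0% (54.2 to 57.8) of SS gene body peaks. In CS and CC the shares of gene body peaks overlapped by SS, 73.6% (68.4 to 78.3) and 80.1% (74.1 to 85.3), were within the intervals of the flank peaks. Where a flank peak was overlapped, the peak over it in the other list usually had the same gene name (675 of 685 SC and 665 of 674 SS flank peaks between those lists). It also mostly had the same label. Of the overlapped SC flank peaks 90.5% met a flank peak of SS, and 7.45% met a start-site peak.

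**Figure D4:**
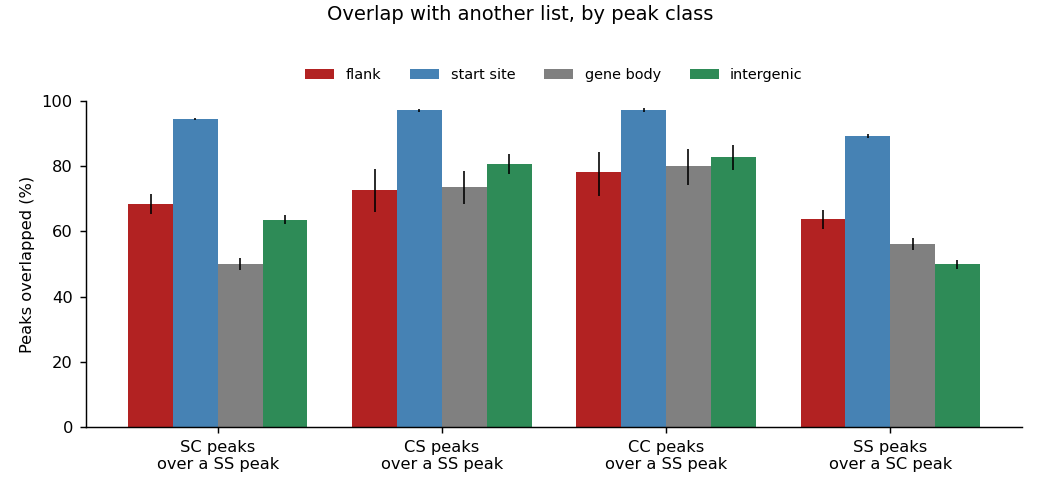
Share of peaks (%) overlapped by at least 1 bp by a peak of another list, for SC, CS and CC peaks over SS and for SS peaks over SC, by class; bars are 95% exact binomial intervals. Flank peaks lie at 68.4%, 72.8%, 78.2% and 63.7%, below start-site peaks in each group of bars.

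Some genes with a flank peak and no start-site peak in their own list had a start-site peak in SS. This was so for 78 of 599 such genes of SC (13.0%, 10.4 to 16.0), 40 of 121 of CS (33.1%, 24.8 to 42.2) and 38 of 94 of CC (40.4%, 30.4 to 51.0). In the other direction, 37 of 649 such genes of SS had a start-site peak in SC (5.70%, 4.05 to 7.77). A CS start-site peak was found for 11 of these 649 genes (1.69%) and a CC one for 10 (1.54%). Among all protein-coding genes, start-site peaks of SS reached 55.3%, those of SC 52.4%, those of CS 18.2% and those of CC 14.3%. Each share above lay below the value for the list searched, although many solitary flank peaks belonged to other gene types. The SS list named 13281 start-site genes, CS 4311 and CC 3389. How far list size sets these shares was not tested. In some cases the same region fell on either side of the 1000 bp limit. A start-site peak and no flank peak of SS overlapped 51 SC, 12 CS and 17 CC flank peaks. A start-site peak and no flank peak of SC overlapped 38 SS flank peaks. Sft2d3, described above, is an example. How many of the genes counted here were of this kind was not determined. Whether a flank peak stood alone by these labels thus differed between lists for some genes.

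Between SC and SS the recurrent flank peaks were the stronger ones. SC flank peaks overlapped in SS had a median fold enrichment of 4.11, and the others 3.13. SS flank peaks overlapped in SC had 3.96, and the others 3.23. The opposite order held for CS and CC against SS, with 4.73 for overlapped and 5.39 for other CS flank peaks, and 4.91 and 5.83 in CC. Of the flank peaks that no SS peak overlapped, 15 of 52 in CS and 16 of 34 in CC lay in the Sfi1 locus described below. Without that locus the medians were 4.68 for overlapped and 4.74 for other CS flank peaks, and 4.84 and 5.20 in CC. Among flank peaks without a start-site companion the order in CC was the other way, with 4.84 for the 86 overlapped and 4.13 for the 15 others, while in CS the medians were 4.68 and 5.16. With the Sfi1 locus left out as well, the CC order turned back, with 4.84 for 85 overlapped and 5.31 for 12 others. The CS medians were then 4.68 and 5.09. These splits were added after the data were seen. No peak of any other list overlapped 309 SC flank peaks (30.9%, 28.0 to 33.8), against 18.5 percent of all SC peaks. This held for 24 CS flank peaks (12.6%, 8.22 to 18.1; all CS peaks 3.85 percent), 9 CC flank peaks (5.77%, 2.67 to 10.7; all CC peaks 2.59 percent) and 356 SS flank peaks (33.6%, 30.8 to 36.6; all SS peaks 22.9 percent). Among those of SS the strongest, pseudogenes and clone names left out, were Wnt6, a Wnt ligand (5.95), Ppp1r3g, a glycogen-targeting phosphatase subunit (5.22), Grem1, a BMP antagonist (4.74), Pcsk6, a proprotein convertase (4.64), and Ccl17, a chemokine (4.64). SC flank peaks that met no SS peak were led by Crb2, a cell polarity protein (6.06), Ethe1, a mitochondrial sulfur dioxygenase (5.95), Map7d1, a microtubule-associated protein (5.89), Lrg1, a secreted glycoprotein (4.81), and Crcp, a component of RNA polymerase III (4.65).

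Many CS and CC flank peaks came from 1 place. On chromosome 11 between 3100000 and 3200000 lay 8 flank peaks in SC (0.799%), 31 in CS (16.2%, 11.3 to 22.2), 32 in CC (20.5%, 14.5 to 27.7) and 12 in SS (1.13%). Most were assigned to Sfi1, a centrin-binding centrosome protein with several annotated starts there, with 5 flank peaks in SC, 24 in CS, 25 in CC and 9 in SS. Others in CS and CC were assigned to Pisd-ps1, Fau-ps2, Gm11399, Gm11400 and Eif4enif1. In this interval the median fold enrichment of flank peaks was 3.43 in SC, 8.52 in CS, 8.41 in CC and 3.31 in SS, against 3.66, 4.68, 4.85 and 3.54 elsewhere. The interval was thus strong in CS and CC and ordinary in SC and SS. The sources used here do not give how reads with several mapping places were handled, and pseudogene copies lie in this interval, so these counts and the Sfi1 assignments are uncertain. Flank peaks were also stacked elsewhere, with 3 at Gm21738 on chromosome 14 in CS and in CC. Gm11168 on chromosome 9 had 3 in CS. The values without the Sfi1 locus still include such places. Pseudogenes and clone names left out, CS flank peaks without an SS overlap were led by Sfi1 (11.3), followed after other Sfi1 peaks by the zinc finger gene Zfp600 (7.70). Those of CC named by the same rule were all Sfi1 peaks, led by 1 of 9.59. Among the peaks so left out, Gm11399 had 11.1 in CS and 10.2 in CC, and Pisd-ps1 had 10.3 and 9.78. A CC peak overlapped 39.3% (32.3 to 46.6) of CS flank peaks, against 24.0 percent of all CS peaks, and a CS peak overlapped 48.7% (40.6 to 56.8) of CC flank peaks, against 31.9 percent. Without the interval these shares were 28.1% (21.3 to 35.8) of flank against 23.4% of all peaks in CS, and 35.5% (27.1 to 44.6) against 31.2% in CC. Without the interval the share of all peaks lay within the counting interval of the flank peaks in both directions.

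Immediate early genes, which neurons switch on rapidly after activity, had flank peaks more often than protein-coding genes at large in SC and SS. There were 8 of 25 such genes in SC, 0 in CS, 1 in CC and 9 in SS, where 2.97 percent of 20665 protein-coding genes had one in SC, 0.426 percent in CS, 0.344 percent in CC and 2.96 percent in SS. The share was 32.0% (14.9 to 53.5) in SC and 36.0% (18.0 to 57.5) in SS. The list was chosen with earlier results of these data known, so this is a description and not a test. Of the 8 peaks in SC, 5 were upstream, and of the 10 in SS, 7 were upstream. Egr3, a zinc finger factor of the Egr family, had the strongest of them in SC, with 9.68 at 1960 bp upstream, and 6.32 in SS at 2245 bp upstream. Its gene had no start-site peak in either list. Nr4a3, an orphan nuclear receptor, had 8.78 in SC and 5.52 in SS. Klf10, a TGF-beta-induced zinc finger factor, had 7.20 in SC and 6.58 in SS, and Egr4 had 7.04 and 5.93, all 4 downstream of the start. Fos had upstream peaks of 3.60 in SC and 3.22 in SS, Fosb downstream peaks of 3.32 and 3.47, and each had a start-site peak as well. Junb had 1 upstream peak in SC, of 5.42, and 2 in SS, of 2.66 and 3.31. Dusp6, a phosphatase that turns off ERK, had upstream peaks of 3.77 in SC, 4.64 in CC and 3.41 in SS. Atf3 had a peak of 2.58 in SS only. The 8 genes of SC were thus all among the 9 of SS.

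The list of developmental transcription factors, which also holds the secreted ligands Wnt1, Shh and Bmp4, likewise exceeded the background share, with 10 of 90 genes in SC (11.1%, 5.46 to 19.5), 0 in CS, 0 in CC and 11 in SS (12.2%, 6.26 to 20.8). Of their peaks 1 of 10 in SC and 2 of 11 in SS lay upstream. The median fold enrichment of the 10 SC peaks was 7.99 and that of the 11 SS peaks 4.87, against 3.69 and 3.59 for flank peaks of all protein-coding genes. Wnt1 was among the members with a flank peak in both lists, with 5.58 in SC and 4.07 in SS. Dlx3, a Distal-less homeobox factor, had 13.0 in SC and 7.67 in SS, and Nkx2-3, an NK-family homeobox factor, had 13.0 and 8.96, each without a start-site peak. Nkx2-5, the cardiac homeobox factor, had 11.7 in SC and 7.28 in SS. Hoxb3 had 8.63 and 6.77. Dlx2, which takes part in the making of striatal neurons, had 8.09 in SC without a start-site peak, and 4.08 in SS with one. These 5 homeobox genes thus had their flank peak downstream in both lists.

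Genes that mark the medium spiny neurons, the main neurons of the accumbens, came from short lists with wide intervals. D1 markers had a flank peak for 0 of 9 in all 4 lists (0%, 0 to 33.6), although 6 in SC and 8 in SS had a start-site peak. D2 markers had 3 of 8 in SC (37.5%, 8.52 to 75.5) and 2 of 8 in SS (25%, 3.19 to 65.1), and 0 in CS and CC. The share of all protein-coding genes, 2.97 percent in SC and 2.96 percent in SS, lay below both D2 intervals. It lay within the D1 interval, which overlaps both D2 intervals. Sp9, a transcription factor that D2 neurons need, had 6.22 in SC and 5.71 in SS, and Upb1 had 3.26 and 2.90, while Gpr6, an orphan receptor, had 3.30 in SC only. Markers shared by both neuron kinds had 3 of 17 in SC and in SS (17.6%, 3.8 to 43.4). Among these were Adcy5, the main striatal adenylyl cyclase, with 4.28 in SC and 3.89 in SS, and Bcl11b, a zinc finger factor, with 4.29 and 4.01. Both also had a start-site peak in each list. Olig2, the oligodendrocyte factor, had 9.94 in SC and 7.97 in SS without a start-site peak, and was the 1 of 10 oligodendrocyte markers with a flank peak. Of 13 interneuron markers, Nos1 (3.39) and Th (2.65) had a flank peak in SC and Zic1 (3.28) in SS. Astrocyte, microglia and endothelial markers had 0 of 10, 0 of 10 and 0 of 8 in each list.

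The share of all protein-coding genes, 2.97 percent in SC and 2.96 percent in SS, lay below the intervals of only some of the following lists. Dopamine and cAMP genes had 7 of 32 in SC (21.9%, 9.28 to 40.0), 1 in CS, 1 in CC and 6 in SS (18.8%, 7.21 to 36.4). Adcy6, described above, was the CS and CC member. Adcy8, a calcium-stimulated cyclase, had 7.75 in SC and 4.17 in SS, Drd4, a D2-class dopamine receptor, 3.89 and 4.13, and Pde4b, a cAMP phosphodiesterase, 3.29 and 3.48. Ddc, which makes dopamine from L-DOPA, had 2 flank peaks in SC only, of 4.17 and 3.41, and Pde4d had 1 in SS only, of 2.79. Axon guidance genes had 5 of 38 in SC and 6 in SS, among them the ephrin Efna5 (7.16 in SC and 5.54 in SS) and the netrin Ntn1 (2.67 and 2.50). Glutamate and GABA receptor genes had 2 of 34 in SC and 3 in SS, with Gria2 at 2.33 in SC and 2.84 in SS and Gabrb1 at 3.78 and 3.89. Of the 22 postsynaptic genes, 2 had a flank peak in SC and 1 in SS. Voltage-gated channel genes had 1 of 34 in both lists, the sodium channel subunit Scn2b (3.46 in SC and 4.11 in SS). H2A.Z genes and exchange complexes had 1 of 28, the INO80 subunit Ino80c, in SC (3.12), CS (4.68) and SS (3.57). The SC and SS intervals of the receptor, postsynaptic, channel and exchange-complex lists all include the background share, so these counts show no excess. Of 72 cytosolic ribosomal protein genes, 58 had a start-site peak in SC and in SS (80.6%), against 52.4% of all protein-coding genes in SC and 55.3% in SS. They had a flank peak for 1 of 72 in SC (1.39%, 0.0352 to 7.50) and for 0 in CS, CC and SS, and the background share of SC lies within that interval.

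**Figure D5:**
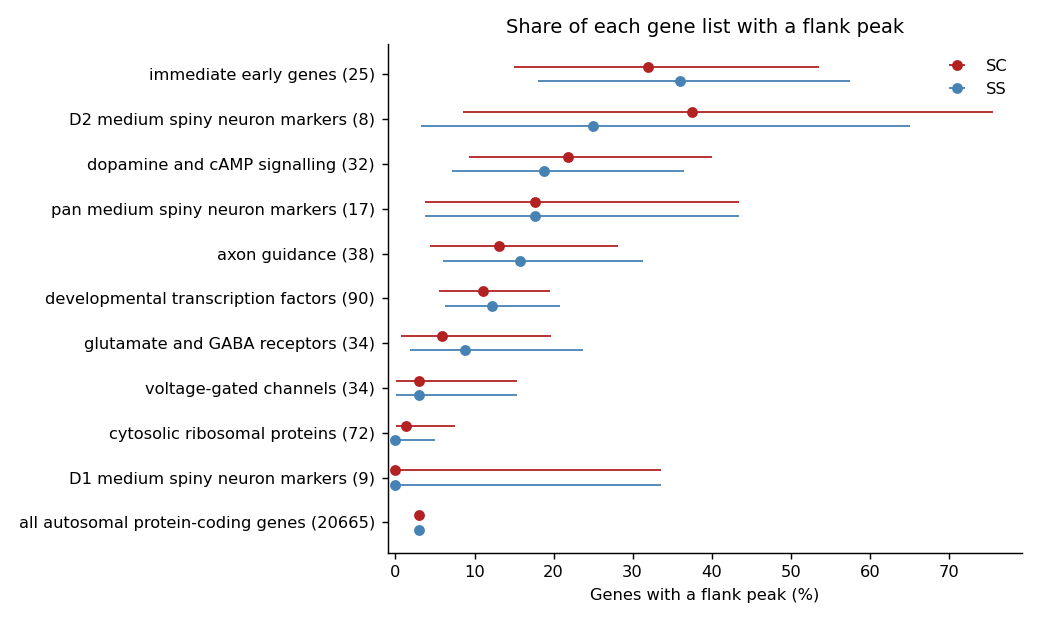
Share of genes (%) with a flank peak in the SC list and the SS list for 10 gene lists and for all autosomal protein-coding genes, with the number of genes in brackets; bars are 95% exact binomial intervals, which cover the counting of genes only. Immediate early genes stand at 32.0% in SC and 36.0% in SS, and all protein-coding genes at 2.97% and 2.96%.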

How the data were processed

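H2A.Z ChIP-seq peaks were deposited as 1 annotated list per condition, for 3 samples each. Per the submitters' processing notes, cutadapt, HISAT, SAMtools and MACS2 were used and the build was mm10. Not given in the sources used here: versions, settings, control library, handling of multiple alignments and pooling of samples. The fold enrichment is a ratio over background and the q-value a significance per peak, both as the authors deposited them, per the file headers; each belongs to its own list. Whether starts count from 0 or 1 is not stated, and coordinates are printed as deposited. Depth was not analysed here.

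Flank peaks were the rows labelled as 3 kb promoter on chromosomes 1 to 19. Side, companions (same gene name, distance within 1000 bp), strength and overlap (bedtools 2.31.1, at least 1 bp) were computed in Python 3.11.15 with pandas 2.3.3, with 95% exact binomial intervals. The scripts were tested on simulated data. With 1 list per condition no significance test was made. RefSeq promoter windows and miRNAs are on GRCm38.p6, the same build as mm10. The 17 gene lists, the members and the choices were made with earlier results of these data known. Named genes are, apart from pseudogenes and clone names, the strongest flank peaks per list, those without a start-site peak, those in all lists, those in no other list, genes with at least 3 flank peaks in SS, and up to 4 members per gene list by SS fold enrichment. Further list members, miRNA genes, Sall1, Chrm4, Smim4, Nt5dc2 and Foxl2 were named after their values were seen. Some results are not reported here.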

Additional observations from a re-analysis of the deposited data

Results flagged for a closer look

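Flank peaks were also present outside chromosomes 1 to 19, which none of the values above include. There were 14 in the SC list, 0 in CS, 0 in CC and 10 in SS, all on chromosome X. Their fold enrichments were 3.10 to 10.2 in SC and 3.32 to 8.18 in SS. Among their genes, Bcorl1, a transcriptional corepressor, Gjb1, the connexin of myelinating cells, and Tsc22d3, a glucocorticoid-induced gene, had flank peaks in both SC and SS. The sex of the animals is not in the labels, so these peaks were not compared between lists.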

How the results depend on the processing

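Taking absolute distance in place of the label gave the same flank peaks in all 4 lists. With the 4670 strongest peaks of each list, flank peaks were 1.76% of SC and 1.43% of SS, 39.0% and 38.8% of them upstream and 3.66% and 8.96% with a start-site companion. Overlap by SS was then 73.2% of SC, 10.7% of CS and 10.9% of CC flank peaks, and SS flank peaks were overlapped by SC at 89.6%, CS at 17.9% and CC at 20.9%. At a −log10 q-value of at least 5, flank peaks were 7.48% of CS and 7.56% of CC, with companions at 44.7% and 51.6% and an SS overlap at 60.5% and 65.6%, and CS and CC overlapped 3.71% and 3.32% of SS flank peaks. Counting any start-site peak within 3000 bp, companions were at 21.2% in SC, 18.8% in CS, 26.3% in CC and 23.1% in SS. With at least 50% of the flank peak covered, SS overlapped 64.7% of SC, and SC overlapped 58.8%, CS 0.473% and CC 0.284% of SS flank peaks. Counting only flank peaks of the other list, SS overlapped 61.9% of SC and 67.3% of CC, and SC 59.0% of SS. Without the Sfi1 locus, an alternative chosen after seeing the data, flank peaks were 2.59% of CS and 2.69% of CC, companions 18.8% and 21.8%, and the SS overlap of CC 85.5%. The cause of these shifts was not tested. Between SS and each other list, the flank share overlapped stayed below that of all peaks except for SS by SC among the 4670 strongest (89.6% against 88.4%), and for SS by CS and CC at 50% covered (0.473% against 0.149%, 0.284% against 0.116%) and at the q-value limit (3.71% against 3.37%, 3.32% against 2.84%). Between CS and CC it was above that of all peaks at 1 bp (39.3% against 24.0%, 48.7% against 31.9%). No paired analysis was possible because the lists hold no values per sample, and for the same reason no sample could be left out. Conditions therefore cannot be told apart from differences in depth or peak calling between lists.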
